A study of Mus musculus with 12 samples.

Results

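The genes described here are those in which Eos- regulatory T cells (Tregs) of the mouse thymus stood outside both other sorted populations, above Eos+ Tregs and conventional CD4 T cells (Tconv) alike or below both. They were found by a contrast of the Eos- Treg libraries against the mean of the other groups, with the libraries paired by number, and a gene was kept where the contrast passed an adjusted p of 0.05 in edgeR's quasi-likelihood test and both differences had the same sign. The contrast passed for 2150 of 15361 genes tested (14.0%), 1119 with Eos- Tregs higher (7.28%) and 1031 lower (6.71%). Of these, 1743 met the rule, 869 above both groups (5.66%) and 874 below both (5.69%). Another 407 genes passed the contrast but lay between the other groups and were left out. Because the contrast also passes where Eos- Tregs differ from 1 of the groups only, a gene is called clearly outside below only where each of the 2 differences passed as well. That held for 621 genes, 313 clearly above (2.04%) and 308 clearly below (2.01%).

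The series holds 12 RNA libraries of sorted thymic CD4+ cells, 4 per population, and its title places the question in the transcription factor Eos (gene Ikzf4) and in Tregs that return to the thymus. All animals carried CD4-Cre and the Foxp3-GFP reporter, which marks cells that express Foxp3, and the labels name no floxed allele, strain or age. Eos- Tregs were Foxp3+ cells without surface Ccr6 and Cxcr4, Eos+ Tregs were Foxp3+ cells with both, and Tconv were Foxp3- cells, so Eos in the names stands for a gate on chemokine receptors and not for the Eos protein. The labels do not say whether the 4 numbered libraries of a group came from separate animals, so the p-values speak only for the scatter among these libraries, part of which may be technical. In each group the Y-linked gene Ddx3y was at 119.7 to 187 CPM in numbers 1 and 3 and at 0 in numbers 2 and 4, while Xist was at 38.8 CPM or more in numbers 2 and 4 and at most at 0.559 in 1 and 3. Each group thus held material from both sexes, and same-numbered libraries were of the same sex. Levels are CPM, read counts relative to the TMM-scaled library total, given in the order of library numbers 1 to 4.

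As background, Tregs restrain immune responses and are made in the thymic medulla, where self-reactive CD4 thymocytes gain Foxp3. Newly made T cells leave the thymus by following sphingosine 1-phosphate through its receptor S1pr1, which the transcription factor Klf2 induces. Other Tregs come back to the thymus from the periphery, and these are known for an activated surface with Ccr6. Il7r, the receptor chain for interleukin-7, is known to be low on Tregs.

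Depth was 23.9 to 37.9 M expected counts per library. On the second principal component, Eos- Treg number 1 lay at -19.4 and the other 3 Eos- Treg libraries at 60.7 to 84.8. Foxp3 stood at 53.3, 653, 862 and 760 CPM in Eos- Tregs, at 55.0, 485, 820 and 655 in Eos+ Tregs, and at most at 3.42 in Tconv, so that both Treg libraries numbered 1 held far less of it than the other 6. Other Treg genes differed in Eos- Treg number 1. Il2ra and Ctla4, at 496 and 261 CPM, lay within the range of the other 3 Eos- Treg libraries and far above Tconv (at most 30.04 and 17.9 CPM). Ikzf2, at 262 CPM, was lower than in the other 3 (398 to 458) but above Tconv (at most 72.3). Lad1, at 90.1 CPM against 379 to 409, lay within the Tconv range (27.6 to 94.4). Cd3e, a chain of the T cell receptor complex, was 873 to 967 CPM in Eos- Tregs. Without the 3 libraries numbered 1, 926 genes lay above both groups and 931 below, 318 and 377 of them clearly, and 253 of the 313 and 227 of the 308 clearly outside genes were among these. Ikzf4, Ccr6 and Cxcr4, for which the populations are named or sorted, lay between the other groups on average in Eos- Tregs and are not among the genes described. In Eos- Tregs, Eos+ Tregs and Tconv, mean Ikzf4 was 171, 314 and 25.3 CPM and mean Ccr6 14.4, 246 and 3.27 CPM. Mean Cxcr4 was 28.7, 39.1 and 15.2 CPM, and its difference to Eos+ Tregs did not pass (adjusted p = 0.188 by edgeR). In number 3, Cxcr4 was higher in Eos- Tregs (42.3 CPM) than in Eos+ Tregs (40.4 CPM).

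The clearly outside genes were of unlike size in the 2 directions. Above both groups the median distance to the nearer group was 0.42 on the log2 scale, and 28 of 313 genes were more than 2-fold above the nearer group. Below both groups the median distance was -0.76, and 113 of 308 genes were more than 2-fold below. The genes above had a median level of 131 CPM over all libraries, the genes below 24.4 CPM and all genes tested 18.8 CPM. Eos- Tregs lay outside within every library number in 298 of the 313 genes and 280 of the 308. For 144 and 125 genes respectively the 4 Eos- Treg libraries did not overlap with any of the other 8, which over all genes tested occurred in 1.34% above and 1.11% below. The clearly outside genes were selected on these same libraries. Their order within numbers and their lack of overlap therefore follow in large part from the rule and are no separate support. Eos+ Tregs were the nearer group for 179 of the genes above and Tconv for 134, and for the genes below the numbers were 138 and 170. These counts rested on single libraries. Without Eos- Treg number 2, 3 or 4, 189, 184 and 189 genes were clearly above and 152, 135 and 151 clearly below. The number clearly below was 191 without Eos+ Treg number 3, and 186, 193 and 183 without Tconv number 2, 3 or 4. Of the 313 genes 146, and of the 308 genes 88, were clearly outside in all 12 fits that each left out 1 library.

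**Figure D1:**
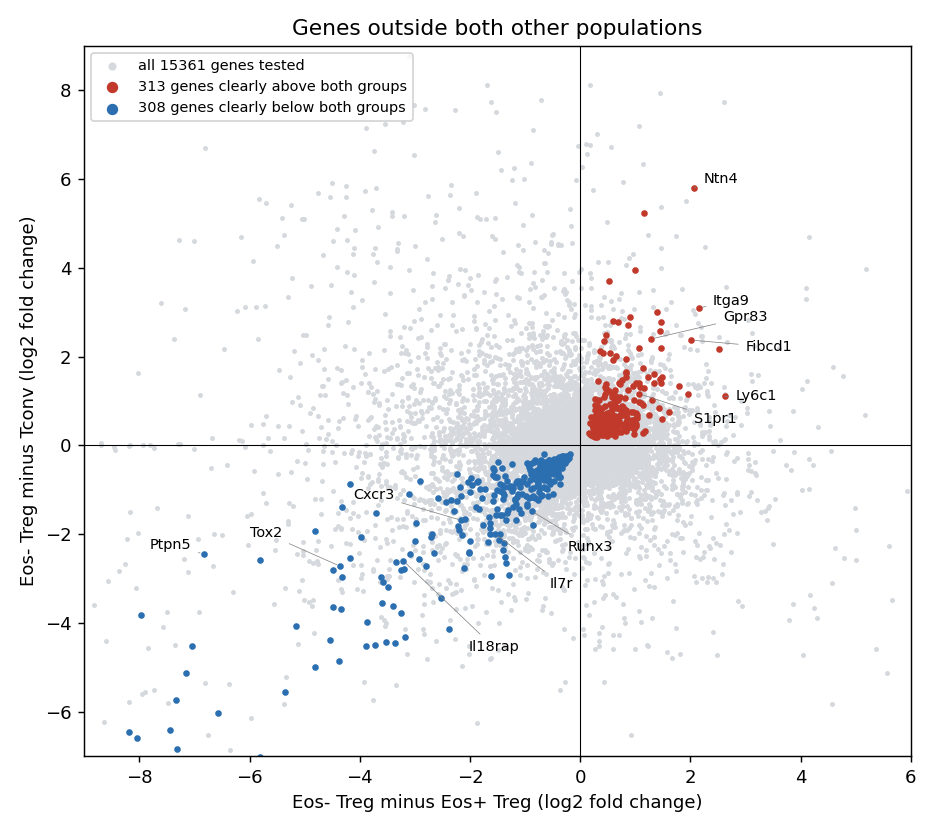
Each point is 1 gene, with the log2 fold change of Eos- Tregs against Eos+ Tregs on the x axis and against Tconv on the y axis. Grey points are all 15361 genes tested, red points the 313 genes clearly above both groups and blue points the 308 clearly below; 28 genes, 2 of them clearly outside, fall beyond the axes. The blue points reach farther from the centre than the red ones.

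Of 20 measured genes of thymic egress and lymph node homing, 8 were above both groups, where 5.66% of all genes were above, 7 of them clearly, among these S1pr1, Klf2, Klf3, Ccr7, Foxo1 and Rasa3, and S1pr4 by the contrast alone. Another 4 were below (Il7r and Ccr4 clearly, Plxnd1 and Sgpl1 by the contrast alone), 2 without Eos- Treg number 3. Foxo1 was no longer clearly above without Eos+ Treg number 1, 2 or 3, Eos- Treg number 2, 3 or 4 or Tconv number 3, and Ccr4 no longer clearly below without Eos- Treg number 2, 3 or 4 or Tconv number 2 or 4. The median contrast of the list was 0.21 on the log2 scale against -0.01 for all genes. The summed level was 10116 to 11663 CPM in Eos- Tregs, 7572 to 9702 in Eos+ Tregs and 7621 to 8670 in Tconv. With each gene weighted alike, the mean log2(CPM + 1) was 7.51 to 7.64, 7.38 to 7.70 and 7.38 to 7.62, and the groups overlapped. By that measure Eos- Tregs were highest in numbers 1, 2 and 4 and below Eos+ Tregs in number 3 (7.63 against 7.70).

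S1pr1 (ENSMUSG00000045092.8, chromosome 3, 115710433 to 115715072, mm10), the receptor that guides T cells out of the thymus, stood at 647, 703, 765 and 737 CPM in Eos- Tregs. It stood at 241, 370, 420 and 340 CPM in Eos+ Tregs and at 307, 315, 367 and 286 CPM in Tconv. All 4 Eos- Treg libraries were above the other 8, while Eos+ Tregs and Tconv overlapped. The mean was 713 ± 50.8 CPM (SD, n = 4), 2.11-fold that of Eos+ Tregs (log2 difference 1.08 ± 0.10 SE, adjusted p = 6.92e-05 by edgeR) and 2.24-fold that of Tconv (1.16 ± 0.10, adjusted p = 3.14e-05).

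Klf2 (ENSMUSG00000055148.7, chromosome 8, 72319033 to 72321656), the transcription factor known to induce S1pr1, stood at 403, 438, 628 and 785 CPM in Eos- Tregs. It stood at 168, 210, 367 and 437 CPM in Eos+ Tregs and at 221, 225, 328 and 302 CPM in Tconv. The groups overlapped by 1 library, Eos+ Treg number 4, but within each library number Eos- Tregs were the highest. The log2 difference was 0.98 ± 0.12 from Eos+ Tregs (adjusted p = 0.000343 by edgeR) and 1.03 ± 0.12 from Tconv (adjusted p = 0.000237). Klf3, a repressor of the same family, was 357 ± 39.7 CPM against 198.7 ± 14.4 in Eos+ Tregs and 124 ± 28.4 in Tconv, with no overlap.

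Ccr7, the chemokine receptor that guides cells into the medulla and lymph nodes, was 1358 ± 298 CPM in Eos- Tregs against 827 ± 175 in Eos+ Tregs and 850 ± 139 in Tconv, and the difference to Tconv, the nearer group, was 0.66 ± 0.06 (adjusted p = 3.26e-05 by edgeR). Rasa3, a Ras and Rap1 GTPase activator, was 860 ± 111 CPM against 555 ± 148 and 469 ± 95.3.

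Against this direction within the list, Il7r (ENSMUSG00000003882.5, chromosome 15, 9505788 to 9530176) was below both groups. It stood at 234, 76.7, 59.7 and 96.4 CPM in Eos- Tregs, at 478, 279, 238 and 250 CPM in Eos+ Tregs and at 444, 398, 290 and 500 CPM in Tconv. The Eos- Treg libraries did not overlap with the others, although number 1, at 234 CPM, came close to Eos+ Treg number 3. Eos+ Tregs had 2.91-fold the level of Eos- Tregs (log2 difference -1.54 ± 0.22, adjusted p = 0.000819 by edgeR), and Tconv 3.98-fold (-1.99 ± 0.23, adjusted p = 0.00018).

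**Figure D2:**
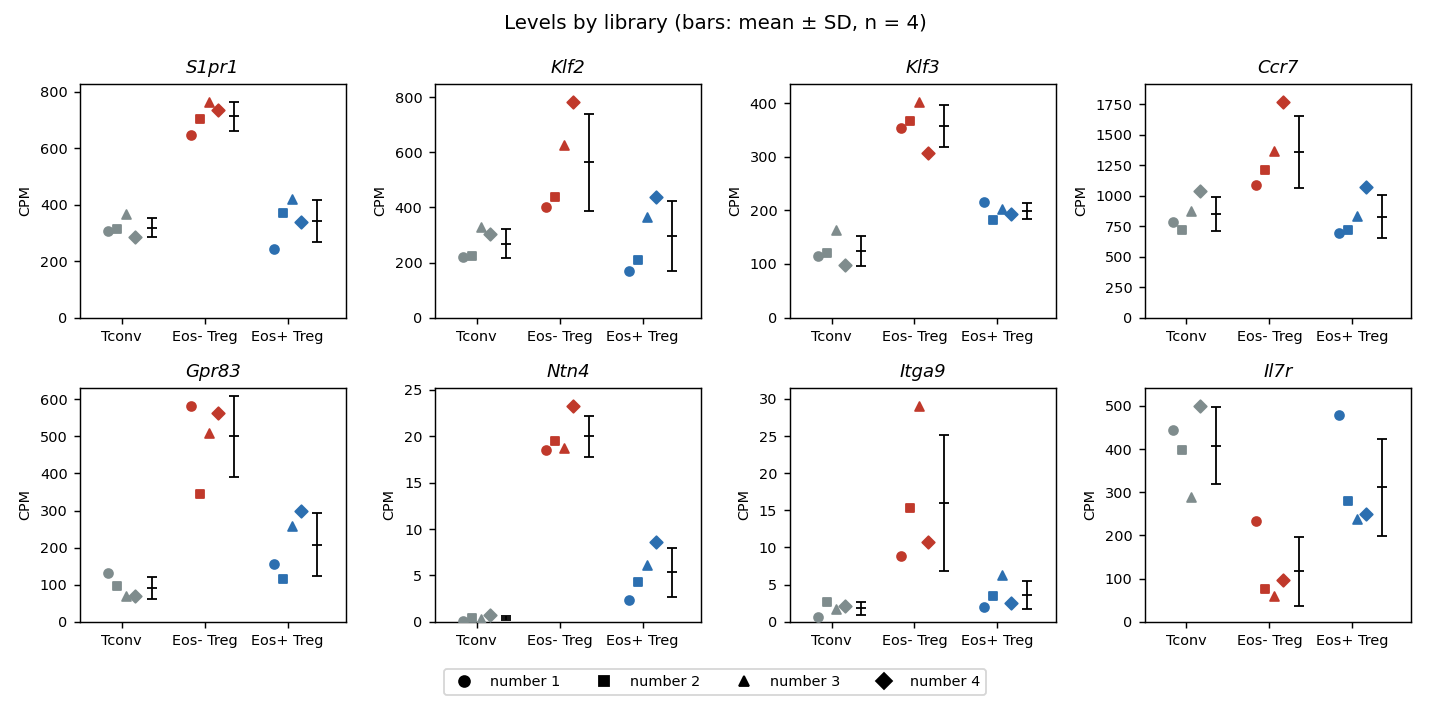
CPM on the y axis (linear, from 0) for 8 genes in Tconv, Eos- Tregs and Eos+ Tregs, 1 symbol per library with its shape giving the library number, and black bars for the mean ± SD of 4 libraries. Eos- Tregs are the highest group in each panel except Il7r, where they are the lowest.

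Ntn4, Itga9 and Gpr83 were among the 15 genes that lay farthest above the nearer group, of those without overlap and with a highest group mean of at least 10 CPM. Ntn4 (ENSMUSG00000020019.4, chromosome 10, 93640681 to 93747207), a secreted netrin of basement membranes, stood at 18.6, 19.5, 18.7 and 23.3 CPM in Eos- Tregs. It stood at 2.32, 4.25, 6.15 and 8.59 CPM in Eos+ Tregs and at 0.131, 0.426, 0.311 and 0.710 CPM in Tconv. The 3 groups did not overlap. Eos- Tregs had 4.20-fold the level of Eos+ Tregs (log2 difference 2.07 ± 0.29, adjusted p = 0.000768 by edgeR) and 55.8-fold that of Tconv (5.80 ± 0.36, adjusted p = 3.45e-06). Of 7 measured netrin ligands and receptors, Ntn4 was clearly above, Ntn1 above by the contrast alone, and the receptor Unc5a clearly below at a mean under 2 CPM in every group.

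Itga9 (ENSMUSG00000039115.13, chromosome 9, 118606690 to 118901003), an integrin alpha chain, stood at 8.89, 15.3, 29.1 and 10.7 CPM in Eos- Tregs, at 2.04 to 6.30 CPM in Eos+ Tregs and at 0.588 to 2.697 CPM in Tconv. The lowest Eos- Treg library was above the highest of the others, and the log2 difference to Eos+ Tregs was 2.15 ± 0.32 (adjusted p = 0.00109 by edgeR). Among 18 integrin chains, Itga9 was clearly above, Itga6 above by the contrast alone, Itgb1 below by the contrast alone and Itgal clearly below, a call that only the fit without Tconv number 3 kept among those that left out 1 library. Gpr83 (chromosome 9, 14860210 to 14870789), a G protein-coupled receptor known to mark Tregs, was 582, 344, 510 and 563 CPM in Eos- Tregs, 156, 116, 259 and 298 CPM in Eos+ Tregs and 69.0 to 132 CPM in Tconv. All Eos- Treg libraries were above all others, with a log2 difference of 1.28 ± 0.28 to Eos+ Tregs (adjusted p = 0.00861 by edgeR) and 2.40 ± 0.29 to Tconv.

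Ly6c1, a GPI-anchored surface protein of mature T cells, took a different order from Ntn4 and Gpr83. It was 30.9 ± 12.1 CPM in Eos- Tregs, 14.0 ± 3.75 in Tconv and 5.28 ± 2.83 in Eos+ Tregs, so that Tconv were the nearer group (log2 difference 1.10 ± 0.17, adjusted p = 0.00137 by edgeR). The call against Tconv was lost without the pairing by number. Its neighbour in the gene family, Ly6a, went the other way, at 47.3 ± 17.4 CPM against 125 ± 27.7 in Eos+ Tregs and 96.0 ± 36.8 in Tconv. Within each number Eos- Tregs held the least Ly6a, and the log2 difference to Tconv was -1.02 ± 0.15 (adjusted p = 0.000757 by edgeR). Reads in this family can match several genes, and the authors' counting shares them out, so these values are less certain.

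Other genes far above both groups were Fibcd1, an acetyl-group receptor (19.8 ± 8.91 CPM against 5.04 ± 2.60 in Eos+ Tregs and 3.58 ± 1.89 in Tconv), and Itih5, an inter-alpha-trypsin inhibitor heavy chain (129 ± 23.96 against 53.7 ± 22.4 and 49.0 ± 10.6). Ptger3, a receptor for prostaglandin E2, was 17.8 ± 5.97 CPM against 6.51 ± 2.36 and 3.18 ± 2.00. Rab3ip, an exchange factor for Rab GTPases, was 247 ± 39.4 CPM against 115 ± 8.21 and 99.3 ± 15.3, and Trpm1, a cation channel, 58.4 ± 14.6 against 27.9 ± 7.37 and 12.6 ± 3.26. In these 5 genes the 4 Eos- Treg libraries were above all 8 others. Drc1, a component of motile cilia, and the membrane protein Tmem121b had the same position. A lack of overlap was a condition for naming genes by their distance to the nearer group, so it is no separate support.

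Of 40 measured interferon-stimulated genes, 24 were above both groups, 14 of them clearly, where 5.66% of all genes were above and 2.04% clearly, and only Ly6a was below. The median contrast was 0.50 on the log2 scale. The count was 25 without Eos- Treg number 1 and 24 without all 3 libraries numbered 1. Beside it stood 10 of 15 components of the interferon pathway, 6 clearly (Irf9, Stat2, Usp18, Irf1, Jak2 and Irf2), with a median of 0.39. Jak2 was no longer clearly above without Eos+ Treg number 1 or 3, Eos- Treg number 1, 3 or 4 or Tconv number 2, 3 or 4, and Irf2 without Eos+ Treg number 1, 2 or 3 or Eos- Treg number 2, 3 or 4. The 2 lists share genes, such as Irf9 and Stat2.

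The promoters of 3 of these genes show the element through which interferons are known to act, the letters GAAA, any 2 bases and GAAA again or, on the other strand, TTTC, any 2 bases and TTTC, bound by interferon regulatory factors. They were chosen after values were seen, because they hold the element and are clearly above both groups. Each line gives the 250 bases before the start, from RefSeq on GRCm38.p6, read 5′ to 3′ on the gene's strand with each match in capitals.
Ifit3, chr19:34583279-34583528, plus strand: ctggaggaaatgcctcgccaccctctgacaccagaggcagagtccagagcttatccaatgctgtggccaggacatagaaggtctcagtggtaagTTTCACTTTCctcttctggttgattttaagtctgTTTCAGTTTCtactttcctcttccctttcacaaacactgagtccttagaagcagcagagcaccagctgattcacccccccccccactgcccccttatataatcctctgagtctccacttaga
Ifi214, chr1:173535958-173536207, minus strand: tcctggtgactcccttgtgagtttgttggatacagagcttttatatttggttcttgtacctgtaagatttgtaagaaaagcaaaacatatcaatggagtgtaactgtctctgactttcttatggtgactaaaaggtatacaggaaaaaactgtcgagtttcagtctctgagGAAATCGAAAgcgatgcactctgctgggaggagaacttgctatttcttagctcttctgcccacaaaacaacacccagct
Igtp, chr11:58199306-58199555, plus strand: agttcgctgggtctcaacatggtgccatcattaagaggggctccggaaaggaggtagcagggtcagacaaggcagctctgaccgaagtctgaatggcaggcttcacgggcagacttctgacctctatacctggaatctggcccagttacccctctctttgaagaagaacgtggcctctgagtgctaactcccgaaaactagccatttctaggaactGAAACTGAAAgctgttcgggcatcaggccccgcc
Ifit3 held matches that begin at -156 and -122 bases from the start, Ifi214 at -79 and Igtp at -34. Overlapping matches were counted, on both strands. Over 32851 promoters of this length, 2.98% held the element, 7.02% the STAT letters TTCNNNGAA, which read the same on both strands, and 52.0% the KLF letters CACCC or GGGTG. By gene, the interferon element stood before 21 of 242 clearly above genes with a promoter in the table (8.68%), 4 of 233 clearly below (1.72%) and 3.32% of 10376 genes tested. For the STAT letters the shares were 9.50%, 6.01% and 7.26%, and for the KLF letters 66.9%, 64.8% and 60.9%. Within the interferon-stimulated list the element was found before 7 of 19 genes above both groups and 9 of 11 of the rest (36.8% and 81.8%), so it was more common before the genes that were not above, a difference that was not tested. A match describes letters and shows no binding.

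Ifit3, an antiviral RNA-binding protein, stood at 153, 199.5, 217 and 245 CPM in Eos- Tregs, at 94.7, 114, 134 and 141 CPM in Eos+ Tregs and at 81.6, 81.4, 112 and 176 CPM in Tconv. Only Tconv number 4 reached the Eos- Treg range, and within each number Eos- Tregs were the highest. The log2 difference was 0.75 ± 0.12 to Eos+ Tregs (adjusted p = 0.00143 by edgeR) and 0.90 ± 0.12 to Tconv (adjusted p = 0.000522). Ifi214, of the nucleic acid sensing Ifi200 family, was 97.0 ± 24.7 CPM against 45.7 ± 14.3 in Eos+ Tregs and 49.2 ± 12.1 in Tconv. Igtp, an immunity-related GTPase, was 516, 511, 566 and 563 CPM in Eos- Tregs against 335 to 414 and 292 to 395 CPM, with no overlap, but it overlaps the gene Irgm2 and reads were not told apart by strand.

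Ifit1bl1, a relative of Ifit1, was 94.1, 94.4, 93.3 and 89.2 CPM in Eos- Tregs against 36.9 to 46.0 CPM in Eos+ Tregs and 30.5 to 52.9 CPM in Tconv. Its 4 Eos- Treg libraries lay close together and far above the rest, with a log2 difference of 1.15 ± 0.14 to the nearer group, Eos+ Tregs (adjusted p = 0.000266 by edgeR). Gbp10, a guanylate-binding GTPase that overlaps the predicted gene Gm43302, was 396 ± 78.9 CPM against 181 ± 36.3 and 121 ± 43.9. By families whose membership was set after the values were seen, 5 of 7 immunity-related GTPases, 4 of 11 Gbp genes, 4 of 6 Ifit genes, 6 of 11 Ifi200 genes, 3 of 8 Schlafen genes, 4 of 9 Irf genes and 3 of 5 H2-T genes were above both groups. In the Ifi200, Schlafen and Irf families 1 gene each was below. Over all genes tested, 5.66% were above both groups and 5.69% below. Such families hold similar sequences, so their values are less certain.

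Irf9, a subunit of the factor through which type I interferons act on the element, was 400, 452, 482 and 435 CPM in Eos- Tregs, 286 to 306 CPM in Eos+ Tregs and 270 to 313 CPM in Tconv. The groups did not overlap, and the log2 difference was 0.57 ± 0.07 to Eos+ Tregs (adjusted p = 0.00026 by edgeR) and 0.61 ± 0.07 to Tconv. Irf9 overlaps the gene Rnf31 in the annotation, and Irf7 the gene Phrf1. Irf7, known to amplify interferon production, was 413 ± 63.5 CPM against 266 ± 33.0 and 292 ± 38.9, and Irf1 438 ± 89.5 CPM against 289 ± 40.6 and 306 ± 76.7. Stat2 was 217 ± 27.3 CPM against 163 ± 34.3 and 134 ± 19.1, and Usp18, a brake on the interferon receptor, 238 ± 35.2 against 184 ± 24.8 and 139 ± 22.8. Samhd1, a dNTP hydrolase that restricts viruses, and Xaf1, an apoptosis factor, were also clearly above, at 1067 ± 189 and 140 ± 16.2 CPM against 850 ± 111 and 88.2 ± 7.56 CPM in Eos+ Tregs and 389 ± 66.3 and 105 ± 13.2 CPM in Tconv. The differences of Irf1, Stat2, Usp18 and Samhd1 to the nearer group were not called without the pairing by number, and that of Samhd1 was also lost without the 3 libraries numbered 4.

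The Gimap genes, a cluster of GTPases on chromosome 6 known to support the survival of T cells, lay above both groups in 7 of 8 measured members, with a median contrast of 0.46. Only Gimap3 and Gimap7 were clearly above. Among all genes 5.66% were above and 2.04% clearly. Gimap7 stood at 225, 179, 198.99 and 254 CPM in Eos- Tregs, at 133, 86.9, 99.2 and 122 CPM in Eos+ Tregs and at 107, 77.0, 67.6 and 87.4 CPM in Tconv. All Eos- Treg libraries were above the rest (log2 difference 0.97 ± 0.09 to Eos+ Tregs, adjusted p = 6.42e-05 by edgeR, and 1.35 ± 0.09 to Tconv). Gimap3 was 1869 ± 195 CPM against 1300 ± 88.9 and 802 ± 83.6. The nearer group was not the same for all members: Gimap4 was 1181 ± 33.2 CPM, against 504 ± 53.3 in Eos+ Tregs but 1038 ± 90.9 in Tconv, a difference that did not pass (adjusted p = 0.051 by edgeR). Gimap1 and Gimap5 were nearer to Eos+ Tregs.

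**Figure D3:**
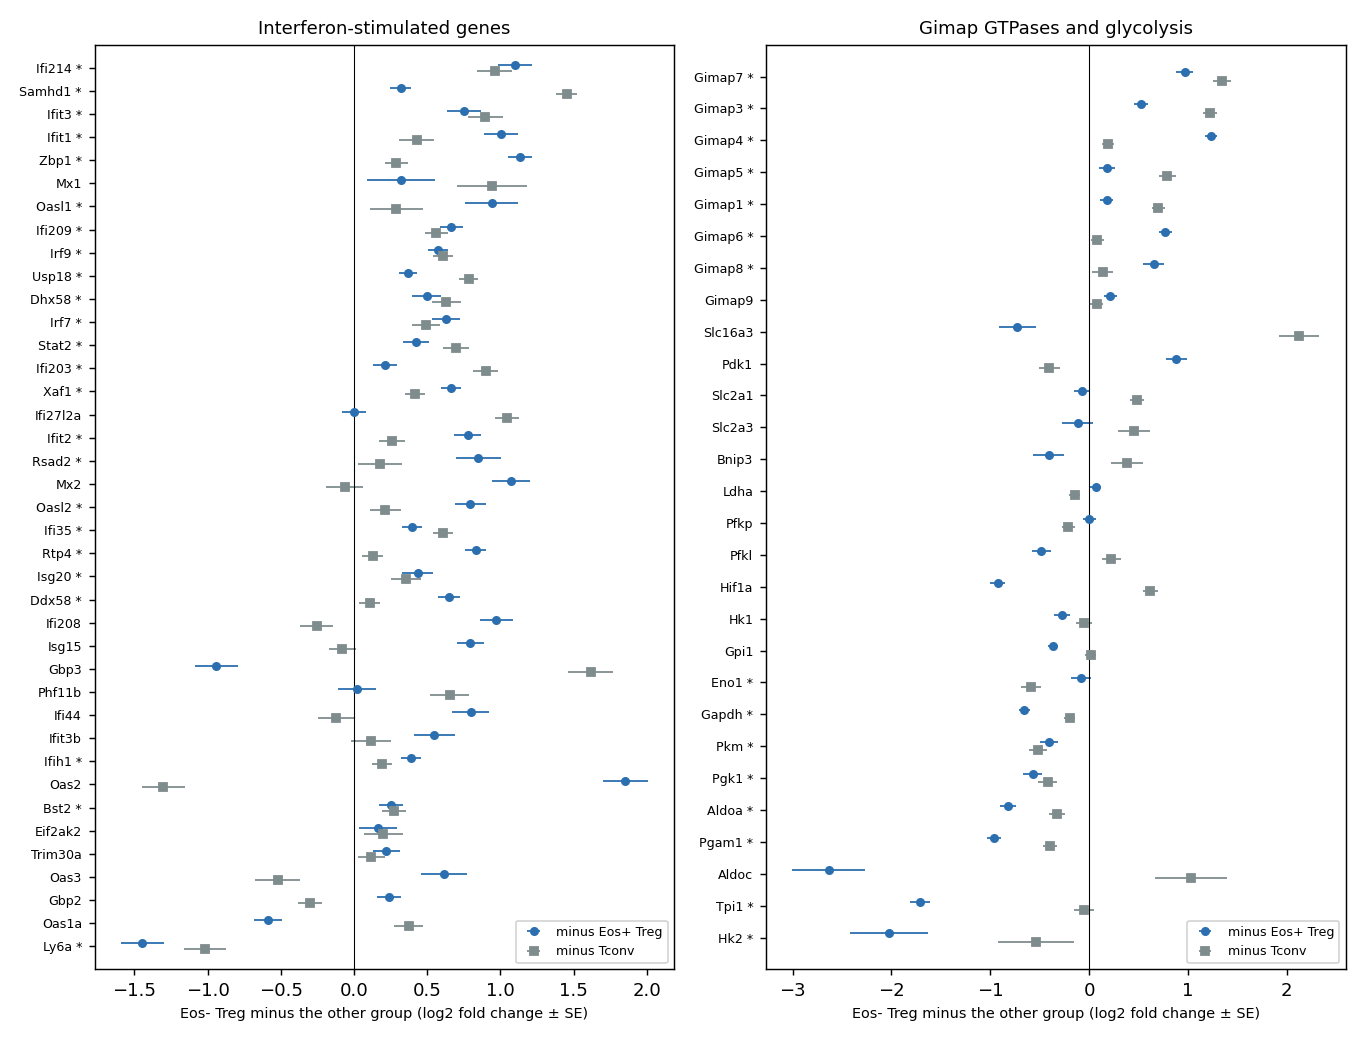
Log2 fold change of Eos- Tregs against Eos+ Tregs (blue circles) and against Tconv (grey squares) with SE, for 39 of the 40 measured interferon-stimulated genes on the left and the Gimap and glycolysis genes on the right, each list ordered by the contrast. An asterisk marks a gene called outside both groups; of the Gimap genes 7 carry one above both groups and of the glycolysis genes 8 below both.

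Maturation and survival genes gave mixed counts, where 5.66% of all genes were above both groups and 5.69% below. Of 25 genes of medullary thymocyte maturation, 10 were above, 8 clearly, and 3 below, all clearly, with a median contrast of 0.29. The membrane proteins Ms4a4b and Ms4a6b, which mark mature thymocytes, were above with no overlap, at 1361 ± 153 and 1050 ± 106 CPM against 931 ± 43.9 and 703 ± 46.2 CPM in Eos+ Tregs and 716 ± 92.6 and 573 ± 73.4 CPM in Tconv. Of 9 measured Ms4a genes, 4 were above, and the B cell gene Ms4a1 was below. Of 20 naive T cell genes 7 were above, 5 clearly, and Il7r was below (median 0.44). As a whole this list lay between the other groups. Its summed level was 9861 to 10433 CPM in Eos- Tregs, 4997 to 6781 in Eos+ Tregs and 11458 to 11966 in Tconv.

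Of 22 survival and death regulators 4 were above, 3 clearly, and 1 below (median 0.09), where 5.66% of all genes were above and 5.69% below. Casp8, the initiator caspase of death receptors, was 359, 368, 393 and 394 CPM in Eos- Tregs, 228 to 260 CPM in Eos+ Tregs and 178 to 206 CPM in Tconv, with no overlap (log2 difference 0.61 ± 0.07 to Eos+ Tregs, adjusted p = 0.000176 by edgeR). Birc3, an inhibitor of apoptosis, was 263 ± 22.7 CPM against 195 ± 12.3 and 123 ± 12.9. Among 28 lineage transcription factors 7 were above, 3 clearly, and 4 below, 2 clearly (median 0.16). Ikzf3, the Ikaros family member Aiolos, was clearly above at 141 ± 16.8 CPM against 90.7 ± 11.0 and 91.7 ± 16.7.

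Genes that respond to the T cell receptor or to cytokines moved in part, where 5.66% of all genes were above both groups and 5.69% below. Of 24 early response genes 6 were above, 4 clearly, and 2 below, 1 clearly (median 0.17), and of 16 genes of agonist signals 4 were above, 3 clearly (0.29). Cd5, a surface brake whose level is known to follow signal strength, was 732, 884, 884 and 836 CPM in Eos- Tregs against 612 to 671 CPM in Eos+ Tregs and 650 to 724 CPM in Tconv, with no overlap. The log2 difference was 0.27 ± 0.06 to Tconv (adjusted p = 0.00976 by edgeR). Dusp5, a phosphatase that limits ERK, was 236 ± 97.0 CPM against 172 ± 62.8 and 177 ± 95.0 (log2 difference 0.44 ± 0.09 to Eos+ Tregs, adjusted p = 0.00742 by edgeR), and was not called without the pairing by number. Of 20 STAT5 and IL-2 response genes 7 were above, 2 clearly (median 0.86), among them Gadd45g, a stress sensor, at 47.9 ± 9.08 CPM against 29.5 ± 3.50 and 23.9 ± 6.79. This list summed to 6331 to 8413 CPM in Eos- Tregs, 7290.5 to 8758 in Eos+ Tregs and 2533 to 2931 in Tconv. As a whole it thus lay above Tconv but overlapped with Eos+ Tregs.

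Most Treg identity genes were not called outside. For this list and those below, the shares over all genes were 5.66% above both groups and 5.69% below. Of 25, 5 were above, but only Gpr83 and Foxo1 clearly, with a median contrast of 0.94. As a whole this list lay between the other groups. Its summed level was 6570 to 9623 CPM in Eos- Tregs, 9674 to 12449 in Eos+ Tregs and 1720 to 2090 in Tconv. Foxp3 passed the contrast through its distance to Tconv, and its difference to Eos+ Tregs did not pass (0.17 ± 0.25, adjusted p = 0.676 by edgeR). In the remaining program lists, the members above and below both groups were 3 and 0 of 22 genes of T cell receptor signalling (median 0.09), 5 and 1 of 24 of NF-kB (0.14), 2 and 4 of 23 TNF receptors and ligands (-0.05) and 5 and 0 of 18 of the TGF-beta pathway (0.21). They were 3 and 6 of 21 chemokine receptors (-0.61), 0 and 2 of 23 coinhibitory and costimulatory receptors (-0.24), 1 and 1 of 10 common gamma chain receptor genes (0.10), 2 and 2 of 18 integrin chains (0.06) and 2 and 1 of 7 netrin genes (1.07). The netrin genes as a whole also lay between the other groups. They summed to 56.0 to 67.9 CPM in Eos- Tregs, 73.5 to 92.0 in Eos+ Tregs and 20.6 to 25.9 in Tconv. Of 30 ribosomal protein genes 2 were above (median 0.10) and of 17 heat shock genes 3 were below (-0.12). None of 29 genes of oxidative phosphorylation (-0.04) and none of 21 of cholesterol synthesis (-0.06) was called outside by edgeR.

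Of 30 effector Treg genes 6 were below both groups, 4 clearly, where 5.69% of all genes were below, 1 was above and 23 were not called outside. The median contrast was -0.99, and 10 genes were below without Eos- Treg number 1. The mean log2(CPM + 1) of the list was 3.06 to 3.89 in Eos- Tregs, 5.52 to 5.83 in Eos+ Tregs and 3.05 to 3.46 in Tconv. By this measure Eos- Tregs were above Tconv in every number. The summed level was 948 to 1159 CPM in Eos- Tregs, 2811 to 3200 in Eos+ Tregs and 1042 to 1433 in Tconv, and here Eos- Tregs were below Tconv in every number. The list as a whole thus lay below Eos+ Tregs, while its position against Tconv depended on the measure. Ccr8, a chemokine receptor of effector Tregs (ENSMUSG00000042262.5, chromosome 9, 120092114 to 120094906), stood at 109, 105, 97.3 and 103 CPM in Eos- Tregs. It stood at 244, 273, 292 and 296 CPM in Eos+ Tregs and at 149, 143, 129 and 173 CPM in Tconv. The 3 groups did not overlap, with Eos- Tregs lowest, at log2 differences of -1.41 ± 0.09 to Eos+ Tregs (adjusted p = 9.80e-06 by edgeR) and -0.52 ± 0.09 to Tconv (adjusted p = 0.00221).

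Icos, a costimulatory receptor of activated T cells, had the same order, at 141, 134, 130 and 145 CPM in Eos- Tregs, 291 to 354 CPM in Eos+ Tregs and 166 to 206 CPM in Tconv, without overlap. The log2 difference to Tconv was -0.43 ± 0.09 (adjusted p = 0.00579 by edgeR). Cxcr3, a receptor for interferon-induced chemokines, was 36.3, 5.87, 9.47 and 13.9 CPM in Eos- Tregs, 111, 33.4, 57.8 and 59.8 CPM in Eos+ Tregs and 37.2, 25.9, 39.8 and 71.9 CPM in Tconv. Eos- Treg number 1 lay within the range of the other groups and the other 3 below it. The log2 difference to Tconv was -1.69 ± 0.33 (adjusted p = 0.00489 by edgeR), a call lost without the pairing by number.

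Runx3, a factor of CD8 and cytotoxic fate, was 16.1 ± 2.17 CPM in Eos- Tregs against 29.9 ± 7.37 in Eos+ Tregs and 44.8 ± 10.1 in Tconv, with no overlap (log2 difference -0.88 ± 0.20 to Eos+ Tregs, adjusted p = 0.0111 by edgeR). Tox2, a nuclear factor of the Tox family, was 5.07, 0.855, 0.415 and 1.32 CPM in Eos- Tregs, 24.2 to 36.2 CPM in Eos+ Tregs and 4.10 to 14.5 CPM in Tconv, so that only Eos- Treg number 1 reached a Tconv library. Il18rap, a chain of the interleukin-18 receptor, was 9.43, 1.34, 1.24 and 2.18 CPM in Eos- Tregs, 20.3 to 34.7 CPM in Eos+ Tregs and 10.2 to 24.3 CPM in Tconv. All Eos- Treg libraries were below the others, with number 1 the highest of them, and the log2 difference to Tconv was -2.60 ± 0.48 (adjusted p = 0.00346 by edgeR).

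Further genes below with no overlap were Pcsk1, a prohormone convertase (a mean of 0.0936 CPM against 12.6 in Eos+ Tregs and 2.06 in Tconv), and Ptpn5, a phosphatase of MAP kinases (0.751 ± 0.461 against 81.1 ± 13.2 and 4.01 ± 1.43). Tmem154, a membrane protein, was 74.2, 52.3, 43.6 and 43.4 CPM in Eos- Tregs against 104 to 127 CPM and 108 to 136 CPM, and the difference to the nearer group was -1.18 ± 0.12 (adjusted p = 0.000132 by edgeR). The semaphorin Sema4f, the endosomal adaptor Appl2 and N4bp3 were at 6.55 ± 2.23, 10.1 ± 3.80 and 6.74 ± 1.89 CPM, against 18.2 ± 6.61, 27.2 ± 8.35 and 17.6 ± 3.03 CPM in Eos+ Tregs and 18.8 ± 1.74, 38.6 ± 3.20 and 15.4 ± 2.74 CPM in Tconv. Adh1, an alcohol dehydrogenase, and Ifi30, a lysosomal thiol reductase, were at 5.38 ± 1.47 and 3.90 ± 1.15 CPM, against 13.9 ± 3.44 and 8.77 ± 2.63 CPM in Eos+ Tregs and 11.4 ± 2.18 and 12.1 ± 1.91 CPM in Tconv. The annotation lists Ifi30 as a processed transcript and not as protein coding.

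Of 20 measured glycolysis genes, 8 were below both groups, 5 of them clearly (Aldoa, Gapdh, Pgk1, Pgam1 and Pkm), where 5.69% of all genes were below and 2.01% clearly. The other 12 were not called outside, and the median contrast was -0.17. The count was 5 without Eos- Treg number 3. Aldoa was no longer clearly below without Eos- Treg number 2 or 3 or Tconv number 3 or 4, and Gapdh without Eos- Treg or Tconv number 2, 3 or 4. The summed level of the list was 8042, 7142, 6509 and 6586 CPM in Eos- Tregs, 8288 to 9326 in Eos+ Tregs and 8579 to 8820 in Tconv, with no overlap. This sum rests on a few abundant genes, among them Eno1, Pkm and Ldha at means of 1665, 1255 and 1285 CPM in Eos- Tregs. With each gene weighted alike, the mean log2(CPM + 1) of the list was 6.89 to 7.04 in Eos- Tregs, 7.44 to 7.62 in Eos+ Tregs and 6.89 to 6.96 in Tconv, and Eos- Tregs were not below Tconv in any number. Pgam1, phosphoglycerate mutase, was 99.0, 83.1, 75.0 and 73.5 CPM in Eos- Tregs, 152 to 176 CPM in Eos+ Tregs and 104 to 114 CPM in Tconv. The groups did not overlap, and the log2 difference was -0.96 ± 0.07 to Eos+ Tregs (adjusted p = 1.73e-05 by edgeR) and -0.40 ± 0.07 to Tconv (adjusted p = 0.00283). Pkm, pyruvate kinase, was 1255 ± 148 CPM against 1658 ± 173 and 1788 ± 109, and Pgk1, phosphoglycerate kinase, 114 ± 19.8 against 168 ± 10.3 and 150 ± 16.3.

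Cell cycle genes leaned below both groups, but with a wide spread in Eos- Tregs. Of 26 S phase genes 9 were below, 7 clearly (median contrast -0.53), and of 26 G2 and M phase genes 7 were below, 3 clearly (-1.48). Among all genes 5.69% were below and 2.01% clearly. The summed G2 and M level was 738, 278, 57.5 and 112 CPM in Eos- Tregs, 804, 289, 462 and 438 CPM in Eos+ Tregs and 904, 842, 561 and 485 CPM in Tconv. Eos- Tregs were the lowest group in every number, by little in numbers 1 and 2 against Eos+ Tregs, and number 1 lay inside the range of the other groups. Cks2, a regulator of cyclin-dependent kinases, was 6.52 ± 2.10 CPM against 15.8 ± 2.12 and 11.2 ± 1.86 with no overlap (log2 difference -0.81 to Tconv, adjusted p = 0.0109 by edgeR). Tyms, thymidylate synthase, was 52.0, 14.985, 12.3 and 9.94 CPM in Eos- Tregs, 28.3 to 68.5 CPM in Eos+ Tregs and 37.4 to 54.0 CPM in Tconv, and its difference to the nearer group was not called without Eos- Treg number 3 or without the pairing by number.

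The counts of cell cycle genes depended on single libraries. Without Eos- Treg number 1, 14 S phase and 18 G2 and M genes were below. Without Eos- Treg number 3 the counts were 3 and 1, and without number 4 they were 2 and 1. The S phase count was 14 without Tconv number 1 and 16 without Eos+ Treg number 2. The G2 and M count was 1 without Eos- Treg number 2, 15 without Eos+ Treg number 2, 12 without Tconv number 1, and 3 without Eos+ Treg number 1, 3 or 4 or Tconv number 2, 3 or 4. Without the pairing by number it was 0 S phase genes and 1 G2 and M gene.

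**Figure D4:**
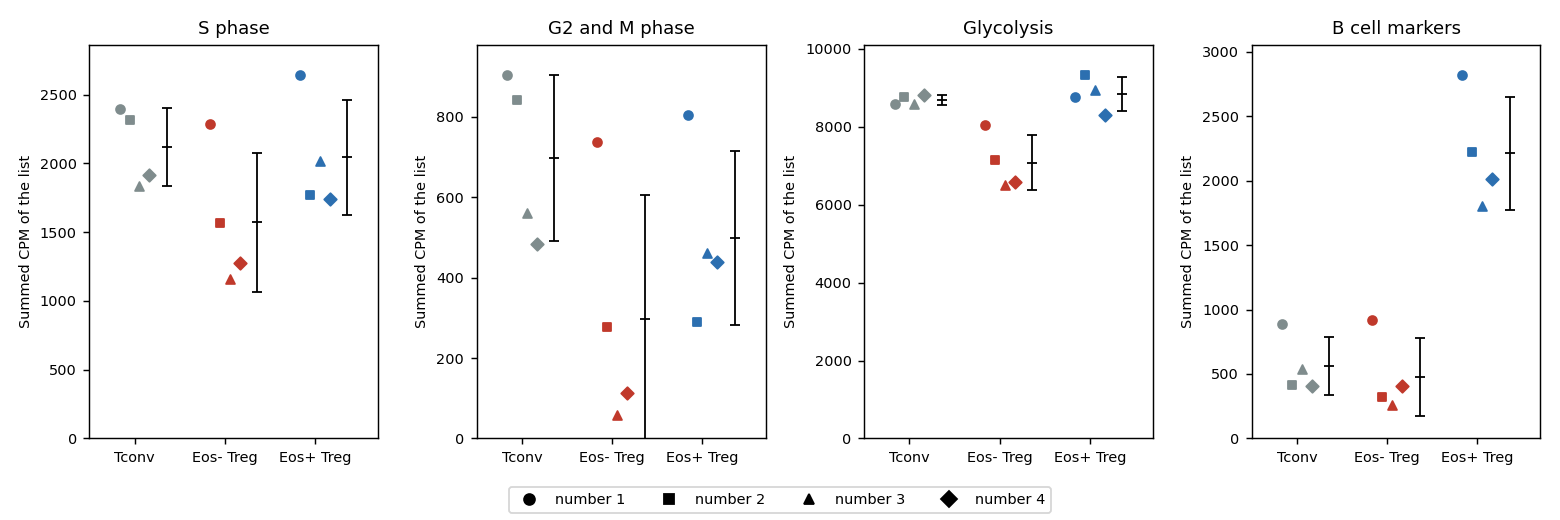
Summed CPM of 4 gene lists on the y axis (linear, from 0) in Tconv, Eos- Tregs and Eos+ Tregs, 1 symbol per library with its shape giving the library number, and black bars for the mean ± SD of 4 libraries (the G2 and M bar of Eos- Tregs is clipped at 0). For the glycolysis sum, in which a few abundant genes weigh most, Eos- Tregs lie below both groups without overlap (at most 8042 CPM), whereas for the cell cycle lists number 1 lies among the other groups, and for B cell markers Eos- Tregs overlap with Tconv.

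Markers of other cells that a CD4+ gate could hold stood below both groups in Eos- Tregs or were not called, with 1 exception. Of 14 B cell markers 6 were below both groups, 5 clearly, where 5.69% of all genes were below and 2.01% clearly. The median contrast of these markers was -2.53. Their summed level was 916, 325, 261 and 404 CPM in Eos- Tregs, 2819, 2219, 1806 and 2010 CPM in Eos+ Tregs and 888, 418, 536 and 405 CPM in Tconv, so that Eos- Tregs overlapped with Tconv. The count was 3 without Eos- Treg number 2 or 3, and 2 without the pairing by number. Cd79a, a chain of the B cell receptor, was 4.98, 0.513, 1.11 and 1.67 CPM in Eos- Tregs, 4.81 to 28.0 CPM in Eos+ Tregs and 1.74 to 16.9 CPM in Tconv, and its call against the nearer group was lost without Eos- Treg or Tconv number 1, 2 or 3 and without the pairing by number. The defining B cell gene Ms4a1 held no count in Eos- Tregs numbered 2, 3 and 4 and 3.07 CPM in number 1. In these sorted pools, fewer cells of a type and less RNA per cell cannot be told apart, and the part of other cells in the genes below both groups was not tested.

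Of 18 dendritic cell and macrophage markers 2 were below (median -0.98), where 5.69% of all genes were below and 5.66% above. Their summed level was 151 to 502 CPM in Eos- Tregs, 399 to 743 in Eos+ Tregs and 186 to 415 in Tconv. Of 12 CD8, NK and cytotoxic markers 3 were below (-1.12), at 86.5 to 307, 207 to 344 and 258 to 575 CPM. Nkg7, a granule protein among them, was 48.4 ± 18.5 CPM against 133 ± 23.4 and 101 ± 59.1, and its difference to Tconv was not called without the pairing by number. Of 21 double-positive thymocyte markers 2 were below (-0.37), at 547 to 1258, 538 to 1038 and 969 to 1655 CPM. None of 9 gamma-delta and NKT markers (-1.23; 159 to 243, 193 to 255 and 204 to 264 CPM) and none of 7 erythroid and granulocyte markers (-0.74; 0 to 473, 0.172 to 532 and 0.0355 to 388 CPM) was called outside. In each group the high end of the erythroid and granulocyte range was library number 1. All libraries with other numbers were at 46.5 CPM or less. Of 8 thymic epithelial and stromal markers 1 was above (0.23; 245 to 349, 143 to 197 and 209 to 235 CPM), Pecam1, which T cells also express and which was no longer clearly above without Eos- Treg number 3.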

How the data were processed

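The authors deposited 1 table of RSEM expected counts per gene, 1 column for each of 12 libraries, without any scaling. The submitters' processing notes list RSEM 1.3.1, STAR 2.7.0f, cutadapt 1.18 and mm10, and their settings and annotation are not given in the sources used here. Per the labels' protocols, cDNA was made with a low-input template-switching kit, which does not mark strand, so overlapping genes share reads. Positions came from GENCODE M21, which held all 55450 gene IDs. Between 9.54% and 10.7% of values per library were not whole, because reads with several matches are divided among genes.

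The test on rounded counts was that of edgeR 4.0.16 under R 4.3.3 (glmQLFit, glmQLFTest; two-sided, TMM, filterByExpr), with 1 mean per group and the library number as a block. The contrast and both differences were adjusted by Benjamini-Hochberg over 15361 genes at 0.05. CPM are on TMM-scaled totals. SE is the fold change over the root of F. Same-numbered libraries deviated together from their group means (r 0.138 to 0.318 over log2 CPM, against -0.226 to 0.0695 for the other 36 pairs), and all 12 libraries correlated best with one of their own number, so the numbers were taken as pairs. Alternatives used DESeq2 1.42.0 and limma 3.58.1, other scalings, filters and thresholds, no block, and libraries left out. On simulated data of 14943 genes, 47.1% of 1.5-fold, 77.3% of 2-fold and 97.0% of 4-fold outside genes were recovered as clearly outside. Genes with a step in Eos+ Tregs only were also simulated. They were counted only in the direction of the step, which a false call cannot take, so they do not show how often such genes are called. The moved genes were abundant, 14543 genes were left unchanged and no effect of library number was drawn, so these shares need not hold in the data.

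Genes were named by rule: the 15 largest distances to the nearer group in each direction among clearly outside genes without overlap and with a highest group mean of at least 10 CPM, the markers and sort genes, and up to 4 outside members of each of 36 lists (642 genes, 601 measured, 87 in 2 or more lists). The text gives a part of these, and some genes are not reported here. Klf3, Rasa3, Igtp, Irf7, Ikzf3, Ms4a4b, Ms4a6b, Samhd1, Xaf1, Cks2, the gene families and other list members past the first 4 were chosen after their values were seen. The members and lists were chosen with earlier results of these data known.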

Additional observations from a re-analysis of the deposited data

Results flagged for a closer look

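In 13 of 201 groups of 4 libraries (67 genes), 1 library stood apart from the other 3 by more than Dixon's 95% limit, where chance gives about 1 in 20 groups. Of these, 4 were Eos- Treg number 1: Birc3 at 229 CPM (the others 269.7 to 277), Il18rap at 9.43 CPM (1.24 to 2.18), Ms4a4b at 1131 CPM (1435 to 1438) and Tyms at 52.0 CPM (9.94 to 14.985). In each of them this library lay nearer to the other populations. Eos+ Treg number 1 stood apart in Il7r, at 478 CPM (238 to 279), and in Ifi30, at 12.7 CPM (7.16 to 7.84), and in both it lay farther from Eos- Tregs. Tconv number 4 was high in Gbp10, at 186 CPM (93.5 to 108), in Ikzf3, at 117 CPM (81.1 to 84.4), and in N4bp3, at 19.5 CPM (13.7 to 14.1), and Tconv number 3 in Stat2, at 162 CPM (121 to 127). Eos- Treg number 3 was low in Appl2, at 4.49 CPM (11.2 to 12.5), and high in Pcsk1, at 0.346 CPM (0 to 0.0287), and Eos- Treg number 4 was high in Ptger3, at 26.7 CPM (14.0 to 15.7).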

How the results depend on the processing

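None of the 62 genes looked at changed the sign of the contrast or of the difference to the nearer group in any of 25 settings. For that difference, 24 of them kept their calls in every setting. These genes were chosen as outside in the main fit, the settings share most of the data, and a stricter threshold cannot change a sign. Kept signs were therefore likely beforehand and are weak support for the directions. The counts moved. Genes called by the contrast, above and below both groups, and clearly above and clearly below numbered 2150, 869, 874, 313 and 308 as reported, and 1209, 534, 453, 148 and 156 without the replicate block, where 147 and 149 of the clearly outside genes were shared. They numbered 858, 424, 277, 143 and 72 at an adjusted p under 0.01, and 209, 81, 86, 18 and 30 where a change beyond 1.5-fold was asked for, in which 2 interferon-stimulated, 0 interferon pathway, 2 Gimap, 2 naive, 4 maturation and 4 egress genes were above. DESeq2 gave 1425 genes below both groups and 508 clearly below. Leaving out 1 library gave 990 to 2388, 462 to 984, 349 to 974, 184 to 331 and 135 to 424 genes. Leaving out all 3 libraries of a number gave 765 to 2217, 381 to 926, 240 to 931, 142 to 318 and 82 to 377, the lowest without number 3, and ended the call against the nearer group for Cd5 (number 2 or 3), Cks2 (3 or 4), Pgk1 (2 or 4), Pkm (2 or 3), Runx3 (2 or 3), Ptger3 (2), Nkg7 (3) and Samhd1 (4), among genes that kept it without any 1 library. Other scalings, other low count filters and limma-voom moved none of these counts by over 1.5 times. A stricter threshold can only lower the counts. The cause of the other shifts, those with fewer libraries among them, was not tested. In the simulation 47.1% of 1.5-fold changes were recovered as clearly outside, so small distances to the nearer group can be missed. How often this happens in the data was not tested.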
